A study of Mus musculus with 80 samples.

Results

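Fasted mouse liver was compared between subjective dusk and subjective dawn. The comparison rests on 12 of the 80 libraries in the series: those titled fasted at circadian time (CT) 12, 24 and 36, with 4 libraries at each time. CT counts the hours of the internal day, in which CT12 and CT36 are the dusks of successive days and CT24 is the dawn between them. Food had been withdrawn at CT10, so the livers had gone without food for 2 h at CT12, 14 h at CT24 and 26 h at CT36. The 8 dusk libraries and the 4 dawn libraries therefore had the same mean fast, 14 h. A change proportional to the length of the fast cancels between them, while a change that comes early and then levels off does not.

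The mice were C57BL/6J, an inbred laboratory strain with no engineered allele, aged 8 to 12 weeks. They were kept on standard chow and a cycle of 12 h of light and 12 h of dark before constant darkness, and each library came from the left liver lobe of a separate mouse, 2 males and 2 females for each treatment and time. Control mice kept their food and were sampled at the same hours, and their 12 libraries serve as the fed counterpart. Titles and detailed labels contradict each other. Of the 12 fasted libraries, 8 are labelled control in the treatment field (all 4 at CT12 and all 4 at CT36) and 6 carry the other sex. By the treatment field the comparison would set control livers at dusk against fasted livers at dawn. The titles were used throughout, and the sex-linked transcripts Xist and Ddx3y matched the sex of the title in 12 of 12 libraries. That check does not bear on the treatment.

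The mammalian clock is a transcriptional feedback loop. BMAL1 pairs with CLOCK or NPAS2 to switch on genes with E-boxes in their promoters, among them the Period and Cryptochrome genes and the nuclear receptors REV-ERBα (Nr1d1) and REV-ERBβ (Nr1d2). PER and CRY proteins shut off their own activator, and REV-ERBs repress Bmal1 through RORE motifs, so that Bmal1 mRNA and the REV-ERB mRNAs peak at opposite times. In the liver the loop hands its timing to metabolism through the PAR bZIP factors DBP, TEF and HLF, which bind D-boxes, while feeding, body temperature and glucocorticoids act on some of the same genes from outside.

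Total counts per library lay between 29365503 and 46895776 at dusk and between 43932530 and 53478705 at dawn. The dawn libraries were deeper, a difference past the spread between libraries (two-sided exact permutation test over 495 splits, p = 0.00606), so depth moved with the comparison. With every library thinned to the smallest total and the 12 libraries fitted alone, 2062 genes passed between dusk and dawn, against 2148 in the same fit of the counts as deposited. Ribosomal RNA took 0.0580% to 0.110% of counts and mitochondrial transcripts 5.37% to 6.86%. All 4 hepatocyte markers present in the table (Alb, Apoa1, Ttr and Serpina1c) were above 0 in every library. Summed over 6 Kupffer cell markers, the level was 178 to 362 CPM (counts scaled to the library's total) at CT12, 161 to 351 at CT24 and 134 to 261 at CT36. Cholangiocyte markers summed to at most 33.7 CPM and lymphocyte markers to at most 23.8 CPM, and the neutrophil marker Ly6g and the pancreatic genes Cpa1, Pnlip, Ctrb1 and Prss2 were at 0 in all 12 libraries. In whole tissue, fewer cells of a type and less RNA per cell cannot be told apart.

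The mean of CT12 and CT36 was set against CT24 (edgeR's quasi-likelihood test, sexes weighted equally, Benjamini-Hochberg adjusted p under 0.05). Of 21187 genes tested, 3648 passed, which is 17.2%. At dusk 1681 were higher (7.93%) and 1967 lower (9.28%). A stricter test asked whether the dawn level lay beyond both dusks: CT12 and CT36 each had to differ from CT24 in the same direction, so that a gene that only rises or only falls along the fast cannot pass. In that test 738 genes passed (3.48%), of which 344 were higher at both dusks (1.62%) and 394 lower at both (1.86%). CT12 minus CT24 and CT36 minus CT24 share the 4 dawn libraries and are not independent. As a description of the libraries themselves, 847 genes (4.00%) had all 8 dusk libraries on 1 side of all 4 dawn libraries, 355 with dusk above (1.68%) and 492 with dusk below (2.32%).

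Of the 16 clock genes tested, 15 passed between dusk and dawn, 11 lay beyond both dusks, and in 10 the 8 dusk libraries did not overlap the 4 dawn libraries. Among the activators and other genes of the dawn phase, 5 of 7 fell at dusk, and 4 of them lay beyond both dusks.

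Bmal1, the partner that CLOCK and NPAS2 require, was at 28 and 31.3 CPM in the males and 38.4 and 35.1 CPM in the females at dawn. At dusk it ran from 2.43 CPM through a median of 3.37 to 4.66 CPM, so that the lowest dawn liver was far above the highest dusk liver. The log2 difference, dusk minus dawn, was -3.28 ± 0.25 (SE, adjusted p = 1.45e-13), with -3.47 at CT12 and -3.09 at CT36. CT36 minus CT12 was 0.38 on the log2 scale and missed the threshold (adjusted p = 0.484).

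Npas2, the paralogue that can stand in for CLOCK, was close to 0 at dusk. Dawn livers held 4.98 and 7.10 CPM in males and 16.3 and 13.2 CPM in females, and dusk livers between 0 and 0.109 CPM. The raw counts behind those dusk values were 0 to 4 per library, 16 in all against 2080 in the 4 dawn libraries, and 2 of the 8 dusk libraries had no Npas2 read. Per total count, dawn exceeded dusk 202-fold (exact 95% interval 124 to 355, counting error only).

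Clock, the DNA-binding partner of BMAL1, had tight groups. It stood at 106 and 113 CPM in the males and 102 and 100 CPM in the females at dawn, and at 34.5 to 58.5 CPM in the dusk livers (median 42), with a log2 difference of -1.27 ± 0.09 (adjusted p = 2.63e-14). The groups did not overlap, and the dusks differed from each other, CT36 being higher than CT12 by 0.54 on the log2 scale (adjusted p = 0.000365). Nfil3, a repressor that competes with the PAR bZIP factors for D-boxes, had 60.4 and 74.9 CPM in males and 68.2 and 52 CPM in females at dawn, against 9.85 to 39.1 CPM at dusk with a median of 18 (log2 difference -1.74 ± 0.18, adjusted p = 8.34e-10). Here too no dusk liver reached the dawn range. CT36 minus CT12 was -0.68 (adjusted p = 0.0285), but -0.23 without CT12 female 2 (adjusted p = 0.589), and the call held in 7 of 12 fits with 1 library left out.

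Cry1, a repressor whose mRNA peaks late in the night, fell by 0.80 on the log2 scale (SE 0.17, adjusted p = 0.000642), but its groups overlapped and it missed the threshold for both dusks (adjusted p = 0.0763). Rora, whose protein activates RORE motifs, had a log2 difference of -0.20 ± 0.11 (adjusted p = 0.242).

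**Figure D1:**
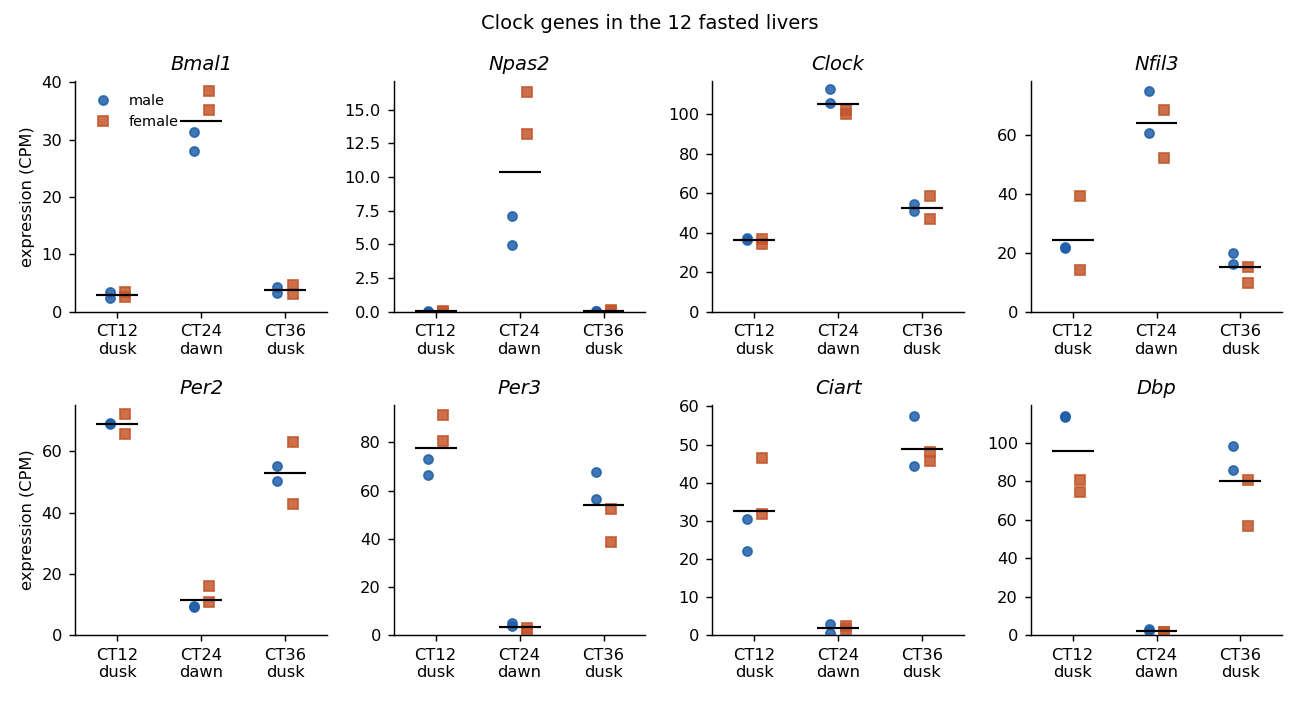
Expression in CPM of 8 clock and clock-output genes in the 12 fasted livers at CT12, CT24 and CT36. Circles are males, squares females, and the bar is the mean of 4 libraries. The genes in the upper row are high at CT24 (Bmal1 28 to 38.4 CPM against 2.43 to 4.66 at the dusks) and the genes in the lower row are low there (Per2 9.16 to 16 CPM against 42.7 to 72).

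All 9 genes of the dusk-phase list rose at dusk, and 7 of the 9 lay beyond both dusks. In 6 of them the groups did not overlap. None of the 9 differed between CT36 and CT12 at an adjusted p under 0.05 in edgeR's test.

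Per2, a core repressor, was at 9.68 and 9.16 CPM in males and 10.9 and 16 CPM in females at dawn. At dusk it lay between 42.7 and 72 CPM with a median of 64.2, and no liver of either group reached the other group's range. The log2 difference was 2.42 ± 0.22 (adjusted p = 1.18e-11). Per3, its relative, had 5.26, 4.10, 1.95 and 3.27 CPM at dawn and 38.7 to 91.1 CPM at dusk (4.20 ± 0.34, adjusted p = 8.23e-13). Ciart, a repressor that binds the CLOCK-BMAL1 complex, was the member with the largest difference in this list. It had 2.88, 0.586, 2.46 and 1.60 CPM in the dawn livers and 22 to 57.6 CPM at dusk, median 45.1 (4.41 ± 0.37, adjusted p = 2.07e-12).

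Nr1d2 went from 21.6 to 37.7 CPM at dawn to 80.5 to 122 CPM at dusk (log2 difference 1.95 ± 0.14, adjusted p = 6.03e-14). Its relative Nr1d1 spread more widely. The dawn livers ran from 7.10 to 31.4 CPM and the dusk livers from 20.5 to 81.7 CPM, and although it rose (1.26 ± 0.28, adjusted p = 0.000955) it was not beyond both dusks (adjusted p = 0.145). Cry2 rose by 1.12 ± 0.12 on the log2 scale (adjusted p = 2.52e-09) with no overlap between groups. Bhlhe40 and Bhlhe41, the DEC repressors that bind E-boxes, rose by 1.60 ± 0.20 and 2.79 ± 0.40. Bhlhe41 was at a low level, with 0.147 to 0.657 CPM at dawn and 0.469 to 6.05 CPM at dusk. Its groups overlapped, the CT12 females with 0.469 and 0.524 CPM lying within the dawn range.

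Per1 is the Period gene that glucocorticoids and cAMP induce directly. At dawn its level was 60.8 and 6.78 CPM in the males and 76.9 and 42.5 CPM in the females, and at dusk 54.2 to 113 CPM with a median of 98.3. The ranges overlapped, and 1 dawn male was far below the other 3 dawn livers. The log2 difference was 1.07 ± 0.30 (adjusted p = 0.0104). Without CT24 male 2 it was 0.64 (adjusted p = 0.134), without CT24 female 2 0.89 (adjusted p = 0.0907) and without CT24 male 1 2.22 (adjusted p = 1.11e-06).

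The promoters of the clock genes were searched for 3 motifs that the loop is known to read: the E-box CACGTG, the D-box TTATGTAA and the RORE consensus. The windows were the 250 bases before the start in RefSeq's GRCm38.p6 annotation, read on both strands, and 13 of the 16 clock genes had such a window. Of all 32851 promoter windows, 6.02% held the E-box, 0.819% the D-box and 0.332% the RORE consensus. Of the 11 clock genes beyond both dusks, 9 were searched, Per2 and Bhlhe40 being the others. A match was found in 3 of the 9, and an E-box also in windows of Cry1 and Per1, which were not beyond both dusks. The windows of the 3 are printed 5′ to 3′ on the gene's own strand, with the matches in capitals.
Ciart promoter: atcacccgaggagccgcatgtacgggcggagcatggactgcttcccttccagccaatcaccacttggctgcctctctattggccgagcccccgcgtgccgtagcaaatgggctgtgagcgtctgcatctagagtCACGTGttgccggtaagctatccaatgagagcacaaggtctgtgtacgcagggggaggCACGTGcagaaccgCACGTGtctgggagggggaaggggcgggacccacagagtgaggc
Per3 promoter: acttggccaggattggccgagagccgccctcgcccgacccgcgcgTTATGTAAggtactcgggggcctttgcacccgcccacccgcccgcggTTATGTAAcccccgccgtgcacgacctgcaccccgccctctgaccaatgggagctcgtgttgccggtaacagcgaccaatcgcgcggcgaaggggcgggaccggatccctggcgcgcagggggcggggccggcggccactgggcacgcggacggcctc
Bhlhe41 promoter: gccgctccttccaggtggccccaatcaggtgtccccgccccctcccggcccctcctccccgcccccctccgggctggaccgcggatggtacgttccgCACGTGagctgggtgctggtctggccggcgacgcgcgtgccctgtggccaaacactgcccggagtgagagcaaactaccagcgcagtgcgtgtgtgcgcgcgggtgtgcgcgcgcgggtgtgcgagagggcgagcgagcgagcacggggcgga
The Ciart window (chr3:95882229-95882478, minus strand) has 3 E-boxes, whose last bases lie 111, 53 and 39 bases before the start. The Per3 window (chr4:151044666-151044915, minus strand) has 2 D-boxes, at 198 and 151 bases. The Bhlhe41 window (chr6:145865421-145865670, minus strand) has 1 E-box at 148 bases. A match describes these letters only, and a window without one says nothing of the factor. The count table was made on GRCm39, and no coordinate was carried between the builds.

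Genes that carry the clock into liver metabolism included 7 of 11 PAR bZIP factors and targets that rose at dusk. None of the 11 fell, and 4 lay beyond both dusks. Dbp, the D-box activator, had 3.57, 2.28, 1.87 and 1.98 CPM at dawn and 56.6 to 114 CPM at dusk, median 83.1, with the groups far apart (log2 difference 5.18 ± 0.43, adjusted p = 1.26e-12). Tef rose from a dawn range of 27.7 to 80.6 CPM to 207 to 268 CPM (2.12 ± 0.16, adjusted p = 6.03e-14), with CT36 minus CT12 at 0.01 on the log2 scale. Cyp2a5, a cytochrome P450 known as a target of these factors, rose by 2.26 ± 0.32 (adjusted p = 7.42e-07), from 88.2 to 312 CPM at dawn to 402 to 1305 CPM at dusk. Alas1, the rate-limiting enzyme of haem synthesis, rose by 1.58 ± 0.42 (adjusted p = 0.00640), with overlapping groups. Without CT24 male 2 its difference was 1.31 (adjusted p = 0.0854), and its call beyond both dusks held in 2 of the 12 fits that left out 1 library each.

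NAD synthesis, which feeds sirtuins with their cofactor, had 4 of 10 genes higher at dusk and none lower. Nampt, the rate-limiting enzyme of the salvage route and a known CLOCK-BMAL1 target, was at 77.4, 70.9, 63.6 and 74 CPM at dawn and 82.8 to 168 CPM at dusk, without overlap (0.92 ± 0.13, adjusted p = 6.79e-07). Nmrk1, the nicotinamide riboside kinase, rose by 1.23 ± 0.21 (adjusted p = 2.96e-05), also without overlap. Nadsyn1, the NAD synthetase, rose by 0.39 ± 0.08. Qprt, of the de novo route, rose by 0.53 ± 0.13, with 0.84 at CT12 and 0.23 at CT36 (adjusted p = 0.341 for the latter), and missed the threshold without CT24 female 1 (0.42, adjusted p = 0.0535). With 1 library left out at a time, the call beyond both dusks held in 12 of 12 fits for Nampt, 10 for Nmrk1 and 7 for Nadsyn1.

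Outside the lists, rises were ranked among genes beyond both dusks with no overlap of groups and a mean log2 CPM of at least 1. Predicted genes, named Gm or ending in Rik, were left out. The largest rises were those of Usp2, Upp2, Map2k6, Kcnk5, Coq10b, Bmf, Lonrf1 and Zfp970. Usp2, a ubiquitin protease, went from 4.26 to 16.1 CPM at dawn to 47.8 to 113 CPM at dusk (log2 difference 3.48 ± 0.28, adjusted p = 5.45e-13). Upp2, a uridine phosphorylase, rose by 2.99 ± 0.27 (adjusted p = 2.8e-11) and was lower at CT36 than at CT12 (-1.06, adjusted p = 0.00472). Map2k6, a kinase upstream of p38, rose by 2.11 ± 0.35 and the potassium channel gene Kcnk5 by 1.96 ± 0.29. Coq10b, Bmf, Lonrf1 and Zfp970 rose by between 1.48 and 1.56. With 1 library left out at a time, the call beyond both dusks was lost for Bmf in the fits without CT24 male 2, CT36 male 2 and CT36 female 2 (adjusted p = 0.0953, 0.0601 and 0.149) and for Lonrf1 in the fit without CT24 male 1 (adjusted p = 0.0657).

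The largest falls by the same rule were those of Spon2, Clpx, Insig2, Asap2, Dtx4, Slc30a10, Rnf125 and Chka. Clpx, the unfoldase of a mitochondrial protease, had 452, 401, 424 and 390 CPM in the dawn livers and 48.5 to 121 CPM at dusk (-2.50 ± 0.17, adjusted p = 1.05e-14). Insig2, which holds the SREBP transcription factors back in the endoplasmic reticulum, fell by 2.41 on the log2 scale (SE 0.18, adjusted p = 4.98e-14), from 618 to 1346 CPM at dawn to 49.8 to 471 CPM at dusk. Its difference from dawn was -3.15 at CT12 and -1.68 at CT36, and the dusks differed from each other (adjusted p = 2.44e-06). Spon2, a secreted matrix protein gene, fell by 2.98 (SE 0.30), and Slc30a10, a manganese exporter, fell by 2.05 (SE 0.26). Chka, the choline kinase of phosphatidylcholine synthesis, fell by 1.90 (SE 0.24). Asap2, Dtx4 and Rnf125 fell by 2.22, 2.19 and 1.90.

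As a description over the 12 libraries, which share times and depth, the log2 CPM of Clpx, B3gat3 and Bltp1 followed Bmal1 closely (Pearson's r of 0.984, 0.971 and 0.961). Among genes with a mean log2 CPM of at least 1, predicted genes aside, Usp2, Map2k6, Nhlrc2 and Dbp followed Per2 most closely. Their r was 0.982, 0.974, 0.970 and 0.960.

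Between the 2 dusks 3307 genes differed (15.6%), 1585 higher (7.48%) and 1722 lower (8.13%) at CT36. Against dawn 4742 genes passed at CT12 (22.4%), 2333 higher (11.0%) and 2409 lower (11.4%), and 2031 at CT36 (9.59%), 1021 higher (4.82%) and 1010 lower (4.77%). Of 24 genes of cholesterol synthesis and uptake, 19 were higher in the mean of the dusks and none was lower, with a median log2 difference of 1.09 against -0.01 over all genes tested. At CT12 23 of the 24 exceeded dawn, with a median of 1.91. At CT36 the median was 0.01, with 2 members higher and 3 lower than at dawn, and Fdft1, named after its value was seen, was the member beyond both dusks. From CT12 to CT36 22 of 24 fell.

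Fdps, the farnesyl diphosphate synthase of the mevalonate route, stood at 175, 181, 280 and 190 CPM at CT12, at 25.9, 15.4, 9.58 and 10.3 CPM at CT24, and at 14, 20.1, 9.92 and 8.35 CPM at CT36. The second dusk overlapped dawn and the first stood far above both. CT12 minus CT24 was 3.83 (adjusted p = 3.35e-14) and CT36 minus CT24 was -0.20 (adjusted p = 0.694). Msmo1 and Idi1, other enzymes of sterol and isoprenoid synthesis, had CT12 differences of 3.18 and 3.49 and CT36 differences of 0.41 and -0.13, neither of the latter past the threshold (adjusted p = 0.418 and 0.862).

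Fatty acid oxidation and ketogenesis, which turn stored fat into fuel, had 13 of 22 genes lower in the mean of the dusks and none higher (median -0.51). At CT12 18 of 22 were lower than at dawn, while at CT36 Acadl alone differed, being higher by 0.41 (named after its value was seen). None of the 22 lay beyond both dusks, and 17 rose from CT12 to CT36. Cyp4a14, a fatty acid omega-hydroxylase and PPARα target, had 78.4, 118, 1140 and 273 CPM at CT12, 6560 to 10600 CPM at CT24 and 5180 to 9880 CPM at CT36. CT24 and CT36 overlapped, and the difference from dawn was -4.92 at CT12 and 0.06 at CT36. Its neighbour in the list Cyp4a10 had -3.59 and -0.04. Fgf21, the fasting hormone of the liver, had -3.85 and -1.12 (adjusted p = 0.270 for the latter), and Pdk4, which restrains pyruvate oxidation, -3.07 and -1.25 (adjusted p = 0.0959 for the latter).

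Lipogenesis had 6 of 16 genes higher at dusk and Elovl3 lower. Thrsp, a nuclear protein of lipogenic cells, exceeded dawn by 5.44 at CT12, with 0.69 at CT36 (adjusted p = 0.468). The transcription factor gene Srebf1 had 2.95 and 0.45 (adjusted p = 0.333 for the latter) and Acly, which makes cytosolic acetyl-CoA, 2.74 and 0.38 (adjusted p = 0.525 for the latter). From CT12 to CT36 12 of the 16 fell, and Dgat2 and Elovl3 were the members beyond both dusks, Dgat2 being named after its value was seen. Elovl3, a fatty acid elongase with male-biased expression in liver, was at 259 and 554 CPM in males and 8.80 and 20.2 CPM in females at dawn. Its dusk livers ran from 0.0547 to 54.4 CPM, overlapping the dawn females, and the differences from dawn were -2.29 at CT12 and -2.82 at CT36. Its call beyond both dusks held in 5 of the 12 fits that left out 1 library each.

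**Figure D2:**
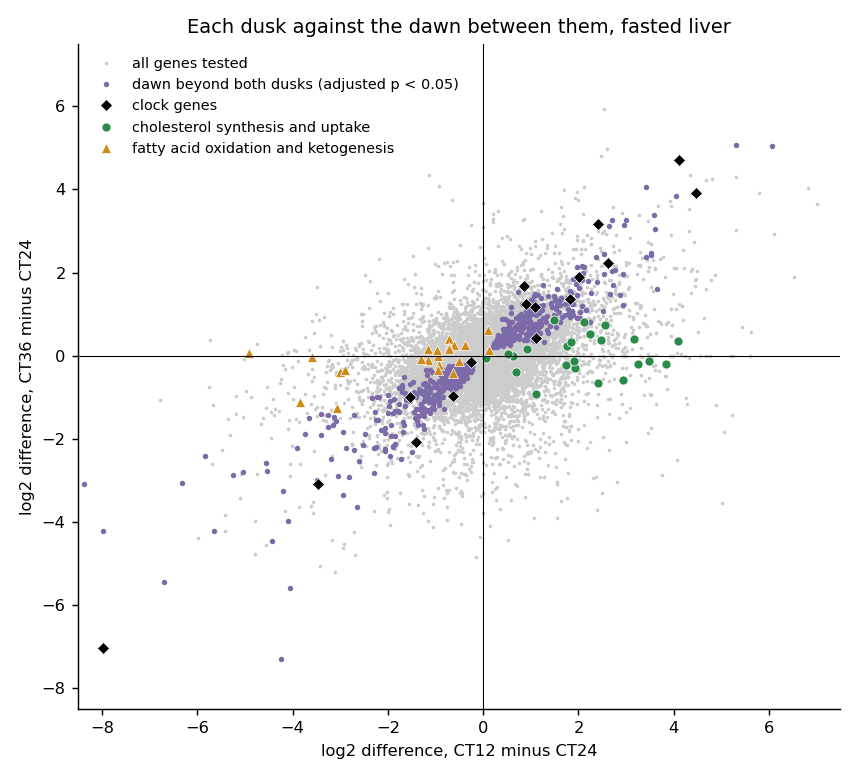
Log2 difference of each of the 21187 genes tested at CT12 minus CT24 (horizontal) and CT36 minus CT24 (vertical) in fasted liver; both axes share the 4 CT24 libraries, so the cloud slopes upward in part by construction. Clock genes lie along the diagonal (Bmal1 at -3.47 and -3.09), cholesterol genes extend to the right near 0 on the vertical axis (Fdps at 3.83 and -0.20), and genes of fatty acid oxidation extend to the left (Cyp4a14 at -4.92 and 0.06).

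Of 14 genes of gluconeogenesis and glycogen, 5 rose and 2 fell at dusk, and 4 of these 7 were beyond both dusks. Gys2, the liver glycogen synthase, had 173, 162, 207 and 119 CPM at dawn and 279 to 702 CPM at dusk, without overlap (1.25 ± 0.15, adjusted p = 2.08e-08). Slc2a2, the hepatocyte glucose transporter GLUT2, rose by 1.14 ± 0.23 and Ugp2, which makes UDP-glucose, by 0.82 ± 0.15, each without overlap. Ppp1r3c, a subunit that brings phosphatase to glycogen, fell by 2.16 on the log2 scale (SE 0.40, adjusted p = 9.75e-05), with dawn levels of 34.9, 163, 24.9 and 144 CPM that overlapped the dusk range of 9.28 to 31.2 CPM. Its difference was -1.28 without CT24 female 2 and -1.41 without CT24 male 2. Its call beyond both dusks was lost in both of these fits, and without CT12 male 2, CT12 female 2 or CT36 female 2, and held in 7 of 12 such fits, against 6 of 12 for Slc2a2.

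Of 12 bile acid genes, 2 rose and 3 fell. Cyp8b1, the sterol hydroxylase of cholic acid synthesis, was the member beyond both dusks (-1.16 ± 0.19, adjusted p = 1.3e-05), and Hsd3b7, an early enzyme of the same route, fell by 0.78 (SE 0.17). Akr1d1, the reductase of the route, rose by 0.81 ± 0.21 and the bile acid importer Slc10a1 by 0.52 ± 0.15. Akr1d1 missed the threshold without CT24 female 1 (0.55, adjusted p = 0.118) and without CT24 male 1 (adjusted p = 0.0526), Slc10a1 without CT24 male 2 (adjusted p = 0.0548), and the call of Cyp8b1 beyond both dusks held in 7 of 12 fits with 1 library left out.

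One-carbon enzymes, which supply methyl groups through S-adenosylmethionine, had 2 of 14 genes higher and 3 lower at dusk. Mat1a, the liver enzyme that makes S-adenosylmethionine, was at 3250, 3680, 5400 and 8330 CPM at CT12, at 14300, 6770, 10100 and 9800 CPM at CT24 and at 10500 to 12000 CPM at CT36. The second dusk lay within the dawn range. Its dusk difference was -0.46 ± 0.14 (adjusted p = 0.0200), with -1.07 at CT12 and 0.15 at CT36 (adjusted p = 0.655 for the latter). Bhmt, which remethylates homocysteine with betaine, fell by 1.02 (SE 0.27, adjusted p = 0.00513), with dawn levels of 2860.5 to 14691 CPM. Pemt, which spends methyl groups on phosphatidylcholine, rose by 0.55 ± 0.10 (adjusted p = 6.19e-05), from 107 to 147 CPM at dawn to 152 to 283 CPM at dusk without overlap, and Gnmt, named after its value was seen, rose by 0.43. Without CT24 male 1 the differences of Mat1a and Bhmt were -0.14 and -0.71 (adjusted p = 0.614 and 0.110). Mat1a also missed the threshold without CT12 female 1 (adjusted p = 0.0594) and CT24 female 1 (adjusted p = 0.0655), and Bhmt without CT24 female 2 (-0.58, adjusted p = 0.211).

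Writers and erasers of methyl marks had 1 of 11 genes higher and 3 lower at dusk, none beyond both dusks. The cap methyltransferase Rnmt fell by 0.39 on the log2 scale (SE 0.08), the m6A writer components Mettl3 and Wtap by 0.30 (SE 0.08) and 0.15 (SE 0.05), and the demethylase Fto rose by 0.20 ± 0.07 (adjusted p = 0.0271). The calls held with 1 library left out at a time in 12 of 12 fits for Rnmt, 10 for Mettl3, 6 for Fto and 5 for Wtap.

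Of 14 heat shock chaperones 3 fell (Hspb1 -1.61 ± 0.28, Hsp90aa1 -0.83 ± 0.17 and Hsp90ab1 -0.30 ± 0.11) and none was beyond both dusks, a share of the list close to the 17.2% of all genes. The cold-inducible Rbm3 rose by 0.58 ± 0.13, with 1.04 at CT36 and 0.13 at CT12 (adjusted p = 0.592 for the latter). Of 15 endoplasmic reticulum chaperones and their relatives, Herpud1 rose (0.68 ± 0.24) and Pdia4 and Creld2 fell (-0.46 ± 0.14 and -0.81 ± 0.26). That is 20% of the list, again close to the 17.2% of all genes. Atf5, a factor of the amino acid and mitochondrial stress responses, and Ddit3 were the 2 of 13 such genes that fell (15.4%, also near that share). Atf5 was beyond both dusks, with 860, 874, 870 and 675 CPM at dawn and 135 to 514 CPM at dusk (-1.59 ± 0.12, adjusted p = 3.4e-13). None of 20 ribosome biogenesis genes passed, Ddx21 (-0.32 ± 0.14) and Heatr1 (-0.28 ± 0.14) having the smallest p, and 1 of 13 actin and immediate early genes did, Vcl (-0.37 ± 0.08). With 1 library left out at a time, the calls held in 12 of 12 fits for Hspb1, 12 for Rbm3, 12 for Atf5, 11 for Hsp90aa1, 11 for Vcl, 9 for Pdia4, 9 for Ddit3, 4 for Hsp90ab1, 4 for Creld2 and 2 for Herpud1. CT24 male 2 was the library whose absence moved Hsp90ab1 most (-0.17) and Ddit3 too (-0.38).

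The cell cycle list had 3 of 12 genes higher and 3 lower at dusk, and 4 of these 6 beyond both dusks. Wee1, the kinase that holds back entry into mitosis and a known clock output, went from 1.35 to 5.06 CPM at dawn to 7.58 to 27 CPM at dusk without overlap (2.49 ± 0.24, adjusted p = 1.63e-10). Ccne1, the cyclin of S-phase entry, rose by 2.00 ± 0.46 at a low level. Cdkn1a, the p21 inhibitor, fell by 2.65 (SE 0.39, adjusted p = 2.29e-06). A dawn male with 19.8 CPM and a dawn female with 84.4 CPM overlapped dusk levels that reached 85.4 CPM. Gadd45b, a stress-induced gene, fell by 1.74 (SE 0.42), with -3.08 at CT12 and -0.40 at CT36 (adjusted p = 0.675 for the latter), and missed the threshold without CT24 female 1 (-1.16, adjusted p = 0.0981). The call beyond both dusks held, with 1 library left out at a time, in 12 of 12 fits for Wee1, 8 for Cdkn1a and 5 for Ccne1.

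Of the 11 glucocorticoid-responsive genes tested, Lcn2 alone passed, and it was lower at dusk (-2.44 ± 0.71, adjusted p = 0.0128). Lcn2 is also an acute-phase gene, and 1 dawn liver carried an acute-phase signal: CT24 male 1 had 3620 CPM of Saa1, a serum amyloid, against 12.8 to 31.1 CPM in the other 3 dawn livers, 2790 CPM of Saa2 against 7.42 to 12.2 CPM, and 159 CPM of Lcn2 against 5.26 to 35.4 CPM. Without that liver Lcn2 had a difference of -0.46 (adjusted p = 0.806), Saa1 of 0.21 and Saa2 of 0.041.

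**Figure D3:**
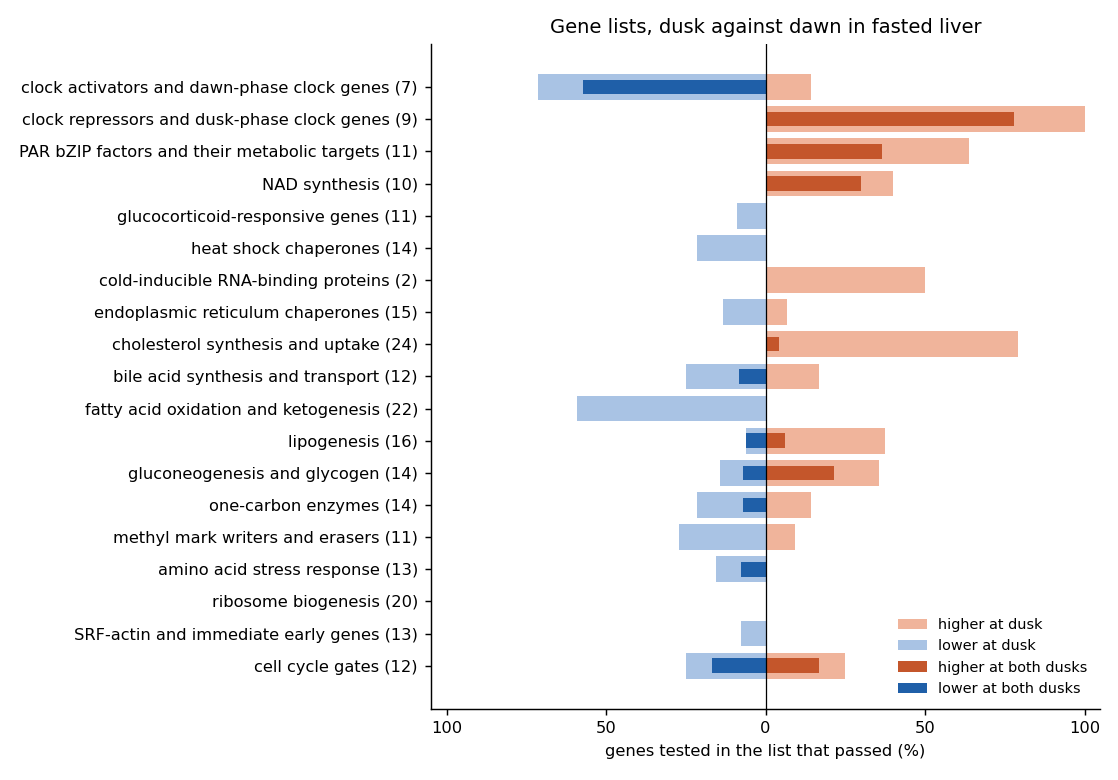
Share of the genes tested in each list that passed, to the right for genes higher at dusk and to the left for genes lower at dusk (number tested in brackets). Pale bars give the comparison of the mean dusk with dawn and dark bars the genes beyond both dusks. The dusk-phase clock list reaches 9 of 9 with 7 beyond both, while cholesterol genes reach 19 of 24 with 1 beyond both.

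The same difference was then measured in fed liver, to ask whether it depends on food. In control livers 3268 genes passed between dusk and dawn (15.4%), 1540 higher (7.27%) and 1728 lower at dusk (8.16%), with 15 of the 16 clock genes among them. The test of the difference itself, dusk minus dawn in fasted minus dusk minus dawn in control liver, called 483 genes (2.28%), 232 in which the fasted value was the higher (1.10%) and 251 in which it was the lower (1.18%). Fasted and control groups share no library.

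None of the 7 dawn-phase clock genes passed in this test. Bmal1 had a log2 difference of -3.28 in fasted and -3.56 in control liver (difference 0.28 ± 0.37, adjusted p = 0.811). Among the 9 dusk-phase genes 3 passed, all with a smaller rise in fasted liver. Nr1d2 rose by 1.95 in fasted and 3.33 in control liver, a difference of -1.38 ± 0.19 (adjusted p = 1.55e-05). In control livers it had 9.04 ± 2.40 CPM at CT24 (SD, n = 4) against 28.3 ± 7.48 CPM in fasted livers, while the CT12 levels were 85 ± 13.2 and 112 ± 10.1 CPM and the CT36 levels 94.8 ± 2.96 and 103 ± 15.1 CPM. Ciart had 0.300 ± 0.105 CPM at dawn in control and 1.88 ± 1.02 CPM in fasted livers, and its rise differed by -2.04 (adjusted p = 0.0402). Per1 had 8.82 ± 2.65 CPM at dawn in control and 46.8 ± 30.1 CPM in fasted livers, and its rise differed by -1.98 (adjusted p = 0.00563). In each of these 3 the ratio of the fasted to the control mean was larger at CT24 than at either dusk. Without CT24 male 1 the differences of Ciart and Per1 were -1.27 and -0.82 (adjusted p = 0.399 and 0.295), and with 1 library left out at a time the call held in 12 of 12 fits for Nr1d2 and in 5 for Ciart.

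Genes were ranked by p in this test at a mean log2 CPM of at least 1, predicted genes aside. The smallest p were those of Ppard, Lpin2, St3gal5, Tmed5 and Grk5 besides Nr1d2. Ppard encodes PPARδ, a nuclear receptor for fatty acids. In control livers it stood at 14.1 ± 1.70 CPM at CT12, 74.9 ± 11.8 CPM at CT24 and 12.8 ± 1.41 CPM at CT36 (SD, n = 4), and in fasted livers at 13.4 ± 1.44, 13 ± 1.65 and 11.6 ± 1.81 CPM. The 4 fasted dawn livers ranged from 11.1 to 14.7 CPM and the 4 control dawn livers from 57.3 to 81.8 CPM, without overlap. The log2 difference between dusk and dawn was -2.48 in control and -0.06 in fasted liver, a difference of 2.42 ± 0.21 (adjusted p = 1.79e-10). Grk5, a kinase of G protein-coupled receptors, had 19.7 ± 6.99 CPM in control and 6.70 ± 1.48 CPM in fasted dawn livers (difference of differences 1.52, adjusted p = 1.73e-05).

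Lpin2, a phosphatidate phosphatase of glycerolipid synthesis, had the reverse pattern. Control livers had 429 ± 79.5, 93.1 ± 10.3 and 422 ± 105 CPM at CT12, CT24 and CT36, and fasted livers 659 ± 176, 662 ± 254 and 766 ± 248 CPM, so that the dip at dawn was in the control livers. The difference of differences was -2.10 (adjusted p = 1.94e-06). St3gal5, which makes the ganglioside GM3, had 75.6 ± 22.4 CPM in control and 541 ± 237 CPM in fasted dawn livers (-1.95, adjusted p = 1.31e-05). Tmed5, of the secretory pathway, was higher at dusk in control (0.58) and lower in the mean of the dusks in fasted liver (-0.58). Its fasted livers had 111, 114, 112 and 122 CPM at CT12 and 240, 218, 266 and 214 CPM at CT24. At CT36 they had 223, 189, 219 and 230 CPM, which overlapped dawn.

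**Figure D4:**
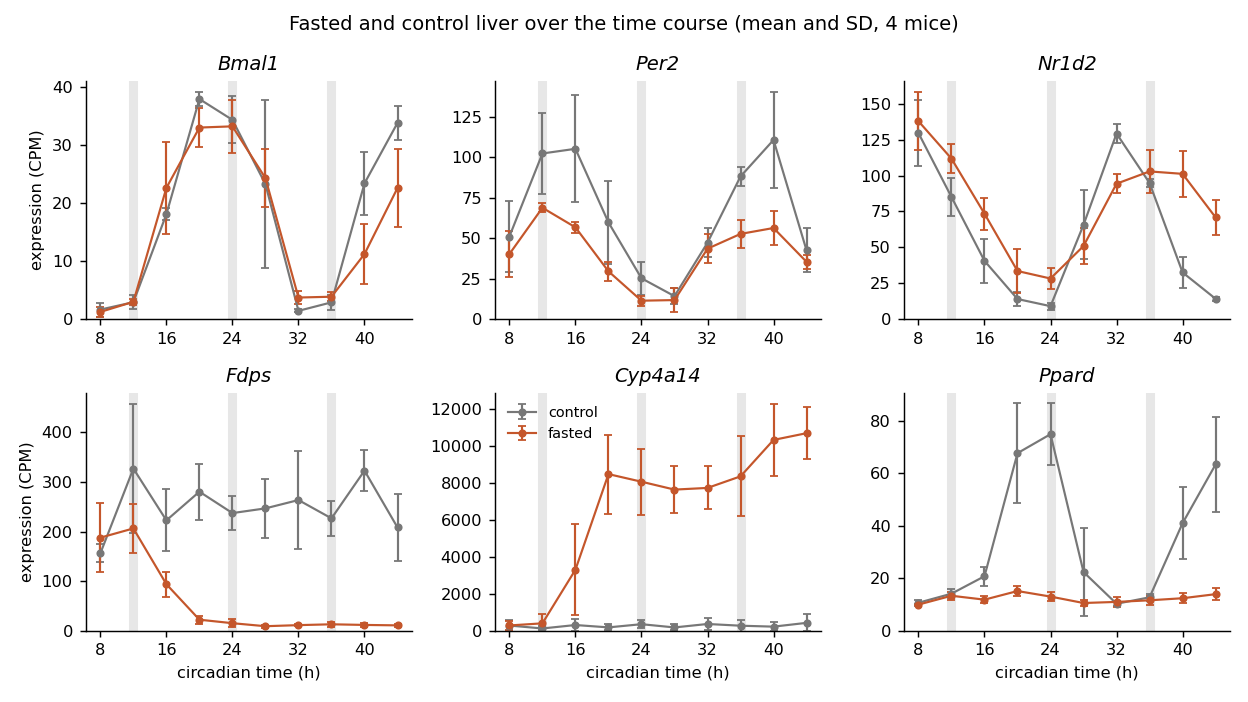
Mean expression in CPM with SD (4 mice) over circadian time in control (grey) and fasted (orange) liver for 6 genes, with CT12, CT24 and CT36 shaded. At the shaded times Bmal1 peaks and Per2 dips at CT24 in both treatments, Nr1d2 averages 9.04 CPM at CT24 in control and 28.3 CPM in fasted liver, the fasted means of Fdps lie below and those of Cyp4a14 above the control means at CT24 and CT36, and the CT24 level of Ppard is 74.9 CPM in control and 13 CPM in fasted liver.

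Of the 24 cholesterol genes, 17 passed in the test of fasted against control, each with the higher dusk minus dawn difference in fasted liver. The list's median dusk difference was -0.01 in control liver. The 17 became 7 without CT24 female 1 and 8 without CT24 male 2. Fdps had 327 ± 130.5, 237 ± 34.5 and 227 ± 35.4 CPM in control livers at CT12, CT24 and CT36, and 206 ± 49.1, 15.3 ± 7.55 and 13.1 ± 5.24 CPM in fasted livers (difference of differences 1.66, adjusted p = 0.000882). Nampt rose less in fasted than in control liver (-0.77, adjusted p = 0.00941). Mat1a was higher at dusk in control liver (0.45) and lower in fasted liver (-0.46), and the difference passed (-0.91, adjusted p = 0.00966), as did that of Mat2a (-0.65, named after its value was seen). Without CT24 male 1 the difference of Mat1a was -0.59 (adjusted p = 0.134).

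In some lists more genes passed in fed than in fasted liver. These counts are descriptions and no test of the lists. Of the 11 glucocorticoid-responsive genes, Fkbp5, Tsc22d3, Zbtb16, Errfi1 and Dusp1 were higher at dusk in control liver and none was in fasted liver, and the median log2 difference was 1.31 in control and 0.08 in fasted liver. Fkbp5 (-1.35) and Lcn2 (-4.10) passed in the test of the difference, Lcn2 no longer without CT24 male 1 (-2.12, adjusted p = 0.443). Of the 15 endoplasmic reticulum chaperones, 11 were lower at dusk in control and 2 in fasted liver, and Pdia6 (0.70) and Calr (0.73) passed in the test of the difference. Pck1, a gluconeogenic enzyme, and Por, the electron donor of the P450s, had lower dusk minus dawn differences in fasted than in control liver (-1.52 and -1.65). In fasted liver Pck1 ran from 3892 to 6765 CPM at dusk and from 3729 to 6050 CPM at dawn. The genes of this paragraph other than Lcn2 were named after their values were seen.

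**Figure D5:**
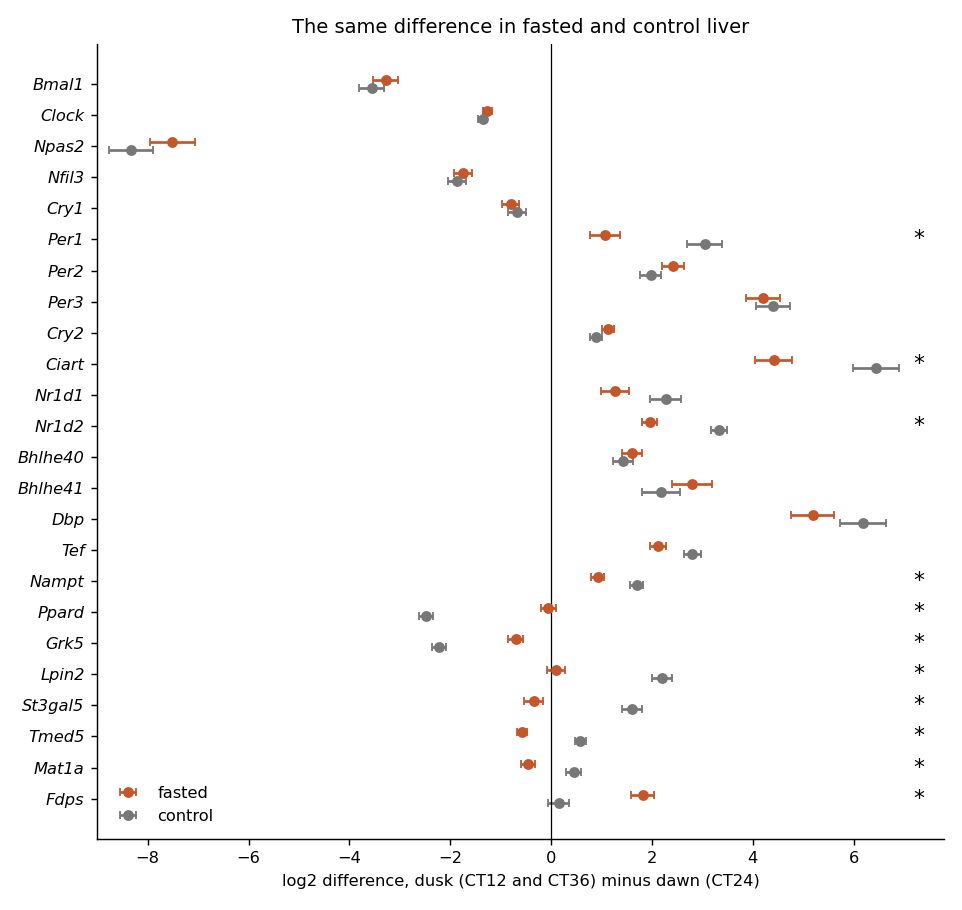
Log2 difference, mean of CT12 and CT36 minus CT24, with SE for 24 genes in fasted (orange) and control (grey) liver. An asterisk marks genes whose difference between treatments passed (adjusted p under 0.05). Bmal1 sits at -3.28 and -3.56 without an asterisk, whereas Nr1d2 (1.95 and 3.33) and Ppard (-0.06 and -2.48) have one.

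Females and males were compared for the same difference within the fasted livers. No gene passed (0 of 21187 in edgeR's test, 0%, with 1607 at an unadjusted p under 0.05), limma-voom called 0 and DESeq2 13. With 2 livers of each sex at a time, this says little about equality. With the same limits on level and name, the genes with the smallest p were Eif2b4, Saa2, Saa1 and Rsad2 (edgeR's adjusted p = 0.240 for each). Eif2b4, a subunit of the exchange factor of translation initiation, had a dusk difference of -0.77 in females and -0.02 in males. Saa1 had 0.73 in females and -6.18 in males and Saa2 0.49 and -7.45. Without CT24 male 1 the female minus male difference was 1.03 for Saa1 and 0.91 for Saa2. The interferon-induced Rsad2 had 0.33 in females and -1.08 in males.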

How the data were processed

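RNA from the left liver lobe of 80 mice was selected for poly(A) tails and sequenced as stranded libraries. The authors deposited a table of raw read counts per gene, 78275 genes by 80 libraries, with no normalisation. The submitters' processing notes name Trimmomatic, HISAT2, DESeq2 and GRCm39, and their settings and the counting tool are not given in the sources used here. Columns were matched to samples by title.

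Counts were analysed in R 4.3.3 with edgeR 4.0.16: genes kept by filterByExpr, TMM scaling, a trended dispersion and a quasi-likelihood fit of all 80 libraries with the 40 combinations of treatment, time and sex as groups, then contrasts with Benjamini-Hochberg adjustment. A gene was beyond both dusks when the larger of its p-values at CT12 and CT36 passed and the directions matched. CPM were computed from TMM-scaled totals, except the cell type marker sums, which used raw totals. The precision of CPM follows the 29365503 to 53478705 counts per library. limma 3.58.1 and DESeq2 1.42.0 were alternatives, and the code was tested on simulated data.

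Named genes were the clock lists, up to 4 called members of each other list by size of difference (2 by p where none was called), the 8 largest rises and 8 largest falls beyond both dusks without overlap at a mean log2 CPM of at least 1, the 6 smallest p between treatments and 4 between sexes, and the 4 genes most like Bmal1 and Per2. Outside the lists, named genes had a mean log2 CPM of at least 1. Predicted genes, named Gm or ending in Rik, were left out. The members and lists were chosen with earlier results of these data known. Some genes chosen by the rule are not reported here. Promoters of the 16 clock genes were matched by symbol to RefSeq's GRCm38.p6 table. The other 56 libraries entered only the fit and the plot of the time course.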

Additional observations from a re-analysis of the deposited data

Results flagged for a closer look

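Among 282 groups of 4 libraries examined over the named genes, 14 had a library whose gap to the nearest other, divided by the group's range of log2 CPM, passed Dixon's 95% critical value, and chance alone gives about 14.1. CT36 female 2 was the far library for Nr1d2 (0.844), Bhlhe40 (0.922) and Usp2 (0.891), all low, and for Gys2 (0.845), high. CT24 male 1 was far above the others for Saa1 (0.843), Saa2 (0.917) and Nadsyn1 (0.864) and below them for Slc30a10 (0.840). CT24 female 1 stood apart for Fgf21 (0.841, high) and Pemt (0.858, low), and CT24 female 2 for Atf5 (0.938, low). The remaining 3 were Gadd45b in CT36 female 1 (0.946, high), Bltp1 in CT12 male 2 (0.978, low) and Fdps in CT12 female 1 (0.830, high).

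The difference between dusk and dawn itself differed between fasted and control liver for 483 genes in edgeR's test of that difference, with the smallest p for Ppard and then Lpin2.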

How the results depend on the processing

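The genes called numbered 3648 between dusk and dawn, 738 beyond both dusks, 3307 between the dusks, 483 between treatments and 0 between sexes. In that order, an adjusted p of 0.01 left 2052, 381, 1918 and 146, and a tested minimum change of 1.5 times left 366, 63, 427 and 27. Without sex in the model the counts were 2298, 338, 1953 and 105, in males alone 2123, 472, 1596 and 239, and in females alone 1062, 59, 1187 and 31. The 12 fasted libraries fitted alone gave 2148, 284 and 2094, with 1 gene between sexes, and the same libraries thinned to 1 depth, an alternative chosen after seeing the data, gave 2062, 267 and 2027, again with 1 between sexes. Fitting the 40 fasted libraries alone gave 477 beyond both dusks, and DESeq2 called 13 genes between sexes. Fewer samples enter the fits of 12 or 40 libraries and of 1 sex, and for the rest the cause was not tested. Counts under other scalings, filters and limma-voom stayed within 1.5 times of these.

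With 1 library left out at a time, counts ran from 2203 to 3628 between dusk and dawn, from 391 to 677 beyond both dusks, from 2384 to 3237 between the dusks, from 133 to 597 between treatments and from 0 to 8 between sexes. Between dusk and dawn the counts that moved by over 1.5 times were those without CT24 male 2 (2203) and CT24 female 1 (2370). Beyond both dusks they were those without CT24 male 2 (391), CT24 female 1 (440), CT36 male 2 (417) and CT36 female 2 (435), between treatments those without CT24 male 1 (261) and CT24 female 1 (133), and between sexes those without CT24 male 2 (8) and CT24 female 2 (4). The clock lists kept 6 calls of 7 in all 12 of these fits and 8 or 9 of 9.

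In females alone Lcn2, Saa1 and Saa2 turned from lower to higher at dusk (0.043, 0.73 and 0.50, none past the threshold). With 1 library left out at a time, Saa1 ran from -3.22 (without CT24 male 2) to 0.21 (without CT24 male 1) and Saa2 from -3.98 to 0.041 under the same settings. Replicate numbers did not pair the samples (correlations of deviations from -0.101 to 0.189), and with a replicate block the counts were 3573, 700, 3250, 478 and 0.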

Other observations

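CT24 male 2, the dawn liver with the lowest Per1, was also the lowest dawn liver for other genes, chosen after their values were seen. It had 22.9 CPM of Lpin1 against 343 to 1410 CPM in the other 3, 402 CPM of Errfi1 against 1150 to 1850 CPM, 11 CPM of Zbtb16 against 79.2 to 91.7 CPM, 38.4 CPM of Tsc22d3 against 75.3 to 106 CPM and 96.5 CPM of Fkbp5 against 145 to 337 CPM. Of these, all but Lpin1 are in the glucocorticoid-responsive list. Among the members of that list tested, Dusp1 alone was lower in another dawn liver, with 26.6 CPM in CT24 male 1 against 31.1 CPM in CT24 male 2.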
